A study of Mus musculus with 20 samples.

Results

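Matrix metalloproteinases (MMPs), their tissue inhibitors (TIMPs) and the related protease Adam8 were followed as 10 genes in bone marrow-derived macrophages (BMDMs) exposed to airway fluid fractions. The members were taken by gene symbol: Mmp8, Mmp9, Mmp12, Mmp13, Mmp14, Mmp19, Timp1, Timp2, Timp3 and Adam8, which are 10 of the 78317 genes listed and of the 34342 genes with a count in any library. Another 17 MMP genes are listed and are described only where they had counts. The 20 libraries are 3′ end RNA sequencing of BMDMs from C57BL/6J females, wild type in all groups, grown in L929 fibroblast-conditioned medium, used on day 7 of culture and treated in Opti-MEM without serum. The 5 groups of 4 libraries received PBS, RNY1+/+ EVFx, RNY1-/- EVFx, RNY1+/+ ProteinFx or RNY1-/- ProteinFx. EVFx is the fraction of bronchoalveolar lavage fluid (BALF) enriched for extracellular vesicles by size exclusion chromatography, and ProteinFx the fraction enriched for protein. Both came from mice challenged with ovalbumin as a model of airway allergy, and RNY1+/+ and RNY1-/- name the genotype of these fluid donors, with or without a CRISPR deletion of the Y RNA gene RNY1, not that of the macrophages. The paper obtained its RNY1 knockout mice from GemPharmatech and lists every other mouse as wild-type C57BL/6J from JAX. Donor genotype may therefore go with mouse source, which was not tested. EVFx was dosed at 35000000 particles per µL and ProteinFx at 0.75 µg protein per µL, so the fractions were matched between genotypes but not with each other. Both fractions were stored for 5 days before use, and no storage is recorded for PBS. Which donor animals or macrophage cultures lie behind each replicate is not given in the sources used here, so the p-values measure only the spread between these libraries.

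MMPs are zinc proteases that cut the extracellular matrix and many secreted or surface proteins. Most are secreted as inactive proenzymes, whereas Mmp14 is anchored in the plasma membrane and is best known for activating proMmp2, in a complex that includes Timp2, and for activating proMmp13. TIMPs bind the active site of MMPs and block it. In the lung, macrophages are the main source of Mmp12, an elastase named for these cells, while Mmp8 and Mmp9 are better known as granule enzymes of neutrophils.

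The promoters of 4 members are shown, Mmp13 and Mmp14 because they were higher with every fluid and Mmp8 and Mmp12 because they were lower with EVFx. Promoter windows from RefSeq (GRCm38.p6, 250 bases before to 50 after each start) were found for 8 of the 10 members, without Mmp9 and Mmp19. The 250 bases before each start are given from 5′ to 3′ on the plus strand, with matches to an AP-1 site (TGANTCA) and to the core of an ETS site (AGGAAG) in capitals, on either strand.
Mmp13, chr9:7272264-7272513: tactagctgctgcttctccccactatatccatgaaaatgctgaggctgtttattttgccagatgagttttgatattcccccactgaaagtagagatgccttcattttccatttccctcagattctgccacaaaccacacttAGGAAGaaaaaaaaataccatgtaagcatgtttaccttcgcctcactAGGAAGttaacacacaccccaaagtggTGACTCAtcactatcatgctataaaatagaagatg
Mmp14, chr14:54431348-54431597: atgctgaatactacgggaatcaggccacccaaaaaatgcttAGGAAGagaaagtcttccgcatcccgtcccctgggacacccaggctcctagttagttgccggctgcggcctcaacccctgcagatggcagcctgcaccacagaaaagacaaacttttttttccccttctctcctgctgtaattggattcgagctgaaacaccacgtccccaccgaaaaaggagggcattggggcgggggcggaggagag
Mmp12, first start, chr9:7344147-7344396: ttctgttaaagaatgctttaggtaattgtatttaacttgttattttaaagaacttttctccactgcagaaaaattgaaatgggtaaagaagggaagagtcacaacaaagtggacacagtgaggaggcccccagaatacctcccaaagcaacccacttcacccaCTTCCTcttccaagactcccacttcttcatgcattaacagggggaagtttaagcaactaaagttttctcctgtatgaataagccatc
Mmp12, second start, chr9:7347124-7347373: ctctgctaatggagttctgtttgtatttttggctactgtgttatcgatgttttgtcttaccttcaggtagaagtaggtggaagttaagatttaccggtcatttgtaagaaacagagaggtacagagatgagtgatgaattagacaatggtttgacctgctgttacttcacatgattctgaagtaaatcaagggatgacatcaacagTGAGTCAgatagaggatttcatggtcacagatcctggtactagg
Mmp8, chr9:7558179-7558428: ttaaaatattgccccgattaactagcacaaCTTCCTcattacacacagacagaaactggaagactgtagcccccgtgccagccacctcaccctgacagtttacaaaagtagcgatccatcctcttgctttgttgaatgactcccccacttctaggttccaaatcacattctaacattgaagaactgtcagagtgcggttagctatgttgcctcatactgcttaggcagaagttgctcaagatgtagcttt
The Mmp13 window held an AP-1 match 35 bases before the start and ETS cores 109 and 62 bases before it. The Mmp14 and Mmp8 windows each held 1 ETS core, at 209 and 220 bases before the start. The first Mmp12 window held an ETS core 87 bases and an NF-kB consensus match, left in lower case, 129 bases before the start, and the second an AP-1 match 44 bases before it. Of 32817 promoter windows of this length in the table, 7.8% held the AP-1 letters, 35.4% the ETS core and 8.5% the NF-kB consensus. None of the 3 motifs was found in the windows of Timp2 and Adam8, while those of Timp1 and Timp3 held ETS cores only. These matches describe letters and not binding.

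Total counts ran from 2509945 to 8277283 per library, counted as unique molecules, and 3 counts were taken as the floor of detection. Every member was above this floor in all 20 libraries. The labels fit macrophages: all 8 macrophage markers were detected, with summed levels of 8567 to 13490 CPM (counts scaled to a common library total) across libraries. Rny1 itself had at most 1.5 counts in any library of this poly(A) assay. These libraries do not check the donors' genotype, as the macrophages sequenced were wild type in all groups. Replicates were compared by their mean squared difference over that expected from counting alone. PBS replicate 3 stood apart, at 16.8 to 34.8 from the other PBS libraries, against 2.30 to 10.4 among the other 3. In RNY1-/- ProteinFx, replicates 1 and 2 differed by 3.50 times and replicates 3 and 4 by 2.57 times, but the pairs differed from each other by 13.3 to 15.7 times. Results that rest on these libraries are given with and without them.

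**Figure D1:**
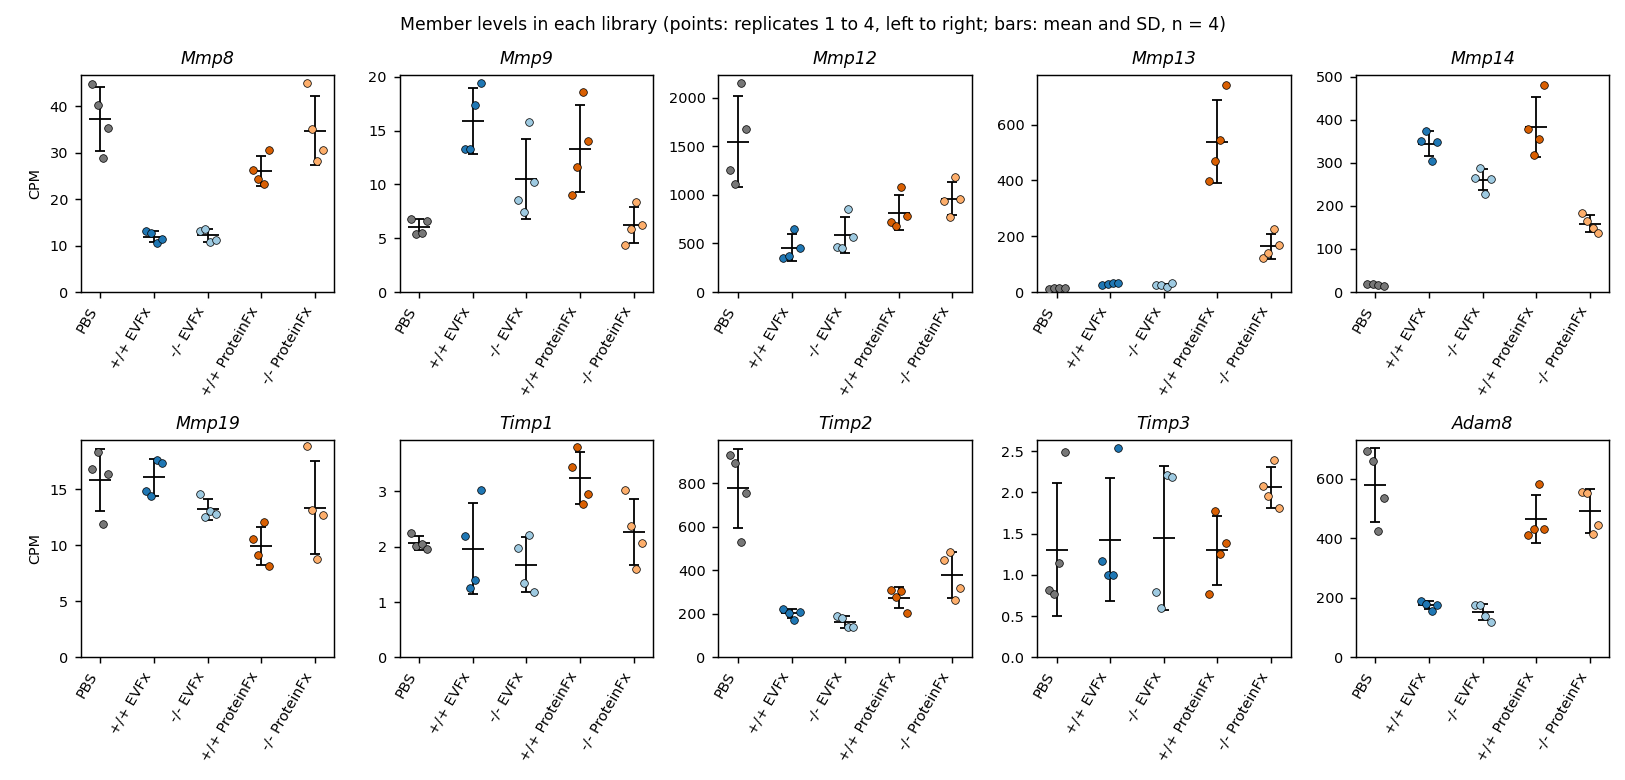
CPM of the 10 members (y axis, linear from 0) in each library, by group on the x axis, where +/+ and -/- name the RNY1 genotype of the fluid donors; points are replicates 1 to 4 from left to right and bars the mean and SD (n = 4). Mmp13 is highest with RNY1+/+ ProteinFx at 396 to 742 CPM, Mmp14 is lowest in PBS at 14.6 to 19.1 CPM, and Timp2 is highest in PBS at 528 to 929 CPM.

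Levels are CPM over each library's total. Since 1 molecule is counted near the 3′ end of each transcript, CPM does not grow with transcript length.

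Mmp14 (ENSMUSG00000000957), the membrane-bound activator of other MMPs, was low in PBS and among the 3 most abundant of the 6 MMPs with every fraction. It was at 19.1, 17.5, 16.7 and 14.6 CPM in PBS, at 351, 374, 305 and 349 CPM with RNY1+/+ EVFx and at 266, 287, 228 and 261 CPM with RNY1-/- EVFx. With RNY1+/+ ProteinFx it was at 379, 317, 356 and 482 CPM and with RNY1-/- ProteinFx at 184, 164, 149 and 138 CPM. All 16 fluid-treated libraries were above all PBS libraries. In order of means, RNY1+/+ ProteinFx (383 ± 70.4, SD, n = 4) and RNY1+/+ EVFx (345 ± 28.7) overlapped, and RNY1-/- EVFx (261 ± 24.5), RNY1-/- ProteinFx (159 ± 20.1) and PBS (17 ± 1.86) each lay below the group before without overlap.

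Mmp13 (ENSMUSG00000050578), a collagenase of fibrillar collagen, separated the fractions. It was at 9.02, 12.8, 15.8 and 12.8 CPM in PBS, at 25.6, 27.7, 32.8 and 30.8 CPM with RNY1+/+ EVFx and at 23.6, 24.7, 18.7 and 31.0 CPM with RNY1-/- EVFx. With ProteinFx it reached 396, 469, 546 and 742 CPM from RNY1+/+ donors and 122, 138, 225 and 167 CPM from RNY1-/- donors. Only the EVFx groups, with means of 29.2 ± 3.23 and 24.5 ± 5.03 CPM, overlapped among neighbours in the order, while RNY1+/+ ProteinFx (538 ± 149), RNY1-/- ProteinFx (163 ± 45.0), the EVFx groups and PBS (12.6 ± 2.77) were separate.

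Mmp8 (ENSMUSG00000005800), the neutrophil collagenase, was at 44.9, 40.3, 28.8 and 35.4 CPM in PBS, at 13.1, 12.6, 10.6 and 11.4 CPM with RNY1+/+ EVFx and at 13.1, 13.6, 10.8 and 11.3 CPM with RNY1-/- EVFx. It was at 26.2, 24.3, 23.4 and 30.5 CPM with RNY1+/+ ProteinFx and at 45.2, 35.1, 28.3 and 30.6 CPM with RNY1-/- ProteinFx. The EVFx libraries all lay below all others, and the 3 remaining groups overlapped along the order PBS, RNY1-/- ProteinFx, RNY1+/+ ProteinFx.

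Mmp9 (ENSMUSG00000017737), a gelatinase, was at 6.76, 5.41, 5.49 and 6.58 CPM in PBS, at 13.3, 13.3, 17.4 and 19.5 CPM with RNY1+/+ EVFx and at 8.54, 7.45, 15.8 and 10.3 CPM with RNY1-/- EVFx. With ProteinFx it was at 9.0, 11.7, 18.6 and 14.1 CPM from RNY1+/+ donors and at 4.35, 5.87, 8.37 and 6.22 CPM from RNY1-/- donors. Every neighbouring pair in the order RNY1+/+ EVFx, RNY1+/+ ProteinFx, RNY1-/- EVFx, RNY1-/- ProteinFx, PBS overlapped, though every treated group other than RNY1-/- ProteinFx lay above PBS without overlap.

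Mmp12 (ENSMUSG00000049723), the macrophage elastase, was the most abundant member. It was at 1255, 1112, 2146 and 1681 CPM in PBS, at 353, 371, 651 and 451 CPM with RNY1+/+ EVFx and at 466, 453, 855 and 562 CPM with RNY1-/- EVFx. It was at 721, 683, 1077 and 780 CPM with RNY1+/+ ProteinFx and at 935, 767, 1179 and 952 CPM with RNY1-/- ProteinFx. Replicate 3 was the highest library in each of the 5 groups, and neighbouring groups overlapped throughout the order PBS, RNY1-/- ProteinFx, RNY1+/+ ProteinFx, RNY1-/- EVFx, RNY1+/+ EVFx.

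Mmp19 (ENSMUSG00000025355), a secreted MMP expressed by myeloid cells, varied least among the MMPs, with group means from 9.97 ± 1.70 CPM with RNY1+/+ ProteinFx to 16.1 ± 1.68 CPM with RNY1+/+ EVFx. RNY1+/+ ProteinFx, at 8.15 to 12.1 CPM, lay below RNY1-/- EVFx, the group next above it in the order, and the other neighbours overlapped.

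Adam8 (ENSMUSG00000025473), a membrane-anchored metalloproteinase of leukocytes that sheds surface proteins, was at 695, 659, 424 and 537 CPM in PBS, at 189, 181, 155 and 177 CPM with RNY1+/+ EVFx and at 174, 176, 138 and 120 CPM with RNY1-/- EVFx. It was at 412, 430, 584 and 430 CPM with RNY1+/+ ProteinFx and at 558, 554, 414 and 446 CPM with RNY1-/- ProteinFx. The EVFx libraries were below all others, and PBS and the ProteinFx groups overlapped.

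Timp2 (ENSMUSG00000017466), the inhibitor that also takes part in proMmp2 activation, made up nearly all TIMP transcripts measured. It was at 929, 892, 528 and 756 CPM in PBS, at 223, 204, 173 and 209 CPM with RNY1+/+ EVFx and at 190, 180, 140 and 139 CPM with RNY1-/- EVFx. It was at 310, 275, 302 and 205 CPM with RNY1+/+ ProteinFx and at 445, 485, 262 and 321 CPM with RNY1-/- ProteinFx. PBS lay above all treated libraries, and the 4 treated groups overlapped with their neighbours in the order RNY1-/- ProteinFx, RNY1+/+ ProteinFx, RNY1+/+ EVFx, RNY1-/- EVFx.

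Timp1 (ENSMUSG00000001131) and Timp3 (ENSMUSG00000020044), the inducible and the matrix-bound inhibitor, were near the limit of measurement. Timp1 had group means from 1.68 ± 0.497 CPM with RNY1-/- EVFx to 3.24 ± 0.472 CPM with RNY1+/+ ProteinFx, and Timp3 from 1.3 ± 0.416 CPM with RNY1+/+ ProteinFx to 2.06 ± 0.245 CPM with RNY1-/- ProteinFx. Each had a library with as few as 4 counts, neighbouring groups overlapped, and neither passed the limit of 3 CPM on the mean that a gene needed to be tested. When this limit was dropped, Timp1 differed between RNY1+/+ ProteinFx and PBS by a log2 fold change of 0.82 ± 0.23 (SE, edgeR adjusted p = 0.0114), under the fold limit.

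Fold changes were fitted with edgeR's quasi-likelihood test on counts scaled by TMM, which sets the bulk of genes as unchanged, and errors on them are SEs. A gene was called with a Benjamini-Hochberg adjusted p under 0.05 over all genes tested and an absolute log2 fold change above 1. With total counts in place of TMM, the median log2 fold change of all genes moved by -0.24 to 0.17 between comparisons. The share of calls that were higher moved with it: from 50.1% to 37.3% for RNY1+/+ EVFx, from 40.1% to 24.5% for RNY1-/- EVFx and from 42.0% to 29.4% for RNY1+/+ ProteinFx against PBS. It went from 16% to 6.9% between genotypes in EVFx, from 36.1% to 50.5% between genotypes in ProteinFx, from 55.2% to 68.9% between the RNY1-/- fractions and from 68.4% to 87.9% for the interaction. No called member changed direction under that scaling. In bulk libraries, fewer cells of a type and less RNA per cell cannot be told apart.

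EVFx was compared with PBS to ask what the vesicle-enriched fluid does to the macrophages. Both EVFx raised Mmp14, Mmp13 and Mmp9 and lowered Mmp12, Mmp8, Adam8 and Timp2, so that the membrane-type MMP rose while the most abundant MMP and TIMP among the members, and Adam8, fell. With RNY1+/+ EVFx, 7 of the 8 members tested were called, 3 higher and 4 lower, where 16.4% of all 10797 genes tested were called. With RNY1-/- EVFx, 7 of 8 were again called, 3 higher and 4 lower, where 22.5% of 10727 genes were. The median log2 fold change of the 8 members was -0.64 and -0.60, beside -0.03 over all genes in both comparisons. These comparisons and those with ProteinFx share the 4 PBS libraries.

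Mmp14 had the largest change, a log2 fold change of 4.52 ± 0.12 with RNY1+/+ EVFx (23.0-fold, edgeR adjusted p = 2.17e-09) and of 4.18 ± 0.13 with RNY1-/- EVFx (18.2-fold, edgeR adjusted p = 5.52e-09). Mmp13 rose by 1.39 ± 0.16 and 1.21 ± 0.20 on the log2 scale, with edgeR adjusted p-values of 4.61e-05 and 0.000417. Its call with RNY1-/- EVFx ended with total counts in place of TMM (0.96) and with trends in GC content and length removed (0.79). Mmp9 was 1.56 ± 0.18 higher with RNY1+/+ EVFx (edgeR adjusted p = 4.12e-05), and with RNY1-/- EVFx it was at the fold limit, 1.00 ± 0.24 (edgeR adjusted p = 0.00465). Same-numbered libraries of PBS and RNY1-/- EVFx deviated together only in part, with correlations of 0.169 to 0.49. PBS replicates 1 and 3 matched RNY1-/- EVFx replicates 2 and 4 better than their own numbers. With the replicate number as a block, Mmp9 was at 0.96 ± 0.21 (edgeR adjusted p = 0.00281), under the fold limit. Left out singly, 4 libraries also took Mmp9 under it: 0.95 without PBS replicate 2, 0.96 without PBS replicate 3, and 0.78 and 0.99 without RNY1-/- EVFx replicates 3 and 4.

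Among the members that fell, Timp2 dropped by 1.76 ± 0.17 and 2.02 ± 0.18 on the log2 scale with RNY1+/+ and RNY1-/- EVFx, with edgeR adjusted p-values of 9.64e-06 and 4.76e-06. Adam8 dropped by 1.54 ± 0.15 and 1.69 ± 0.17, and Mmp8 by 1.47 ± 0.15 and 1.37 ± 0.16. Mmp12 dropped by 1.59 ± 0.24 (edgeR adjusted p = 0.000328) and 1.17 ± 0.24 (edgeR adjusted p = 0.0018). Without PBS replicate 3, the PBS library with the most Mmp12, the change with RNY1-/- EVFx was -0.96 (edgeR adjusted p = 0.000981) and no longer called, which left 5 called members there, while RNY1+/+ EVFx kept all 7. Mmp19 had log2 fold changes of 0.18 ± 0.15 and -0.03 ± 0.16, with edgeR adjusted p-values of 0.366 and 0.897.

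ProteinFx was compared with PBS for the same question on the protein-rich fluid. Mmp13 and Mmp14 rose with both ProteinFx. Mmp9 rose and Timp2 fell with RNY1+/+ ProteinFx. With RNY1+/+ ProteinFx, 4 of 8 members tested were called, 3 higher and 1 lower, where 21.4% of 10832 genes were called, and with RNY1-/- ProteinFx 2 of 8, both higher, where 14.3% of 10854 genes were. The medians of the 8 members were -0.25 and -0.10, beside -0.03 over all genes.

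Mmp13 rose by 5.59 ± 0.25 on the log2 scale with RNY1+/+ ProteinFx (48.2-fold, edgeR adjusted p = 9.17e-09) and by 3.77 ± 0.25 with RNY1-/- ProteinFx (13.6-fold, edgeR adjusted p = 1.63e-06). Mmp14 rose by 4.67 ± 0.17 (25.5-fold) and 3.29 ± 0.13 (9.79-fold), with edgeR adjusted p-values of 2.59e-09 and 7.3e-08. With RNY1-/- ProteinFx replicates 1 and 2 only, Mmp13 and Mmp14 were 3.40 and 3.38 above PBS on the log2 scale, and with replicates 3 and 4 only 4.09 and 3.21. Mmp9 was 1.3 ± 0.23 higher with RNY1+/+ ProteinFx (edgeR adjusted p = 0.000734) and at 0.05 ± 0.24 with RNY1-/- ProteinFx.

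Timp2 dropped by 1.34 ± 0.18 with RNY1+/+ ProteinFx (edgeR adjusted p = 0.000115). With RNY1-/- ProteinFx its log2 fold change was -0.98 ± 0.22 (edgeR adjusted p = 0.00692), just under the fold limit. It passed that limit without PBS replicate 3 (-1.13), without RNY1-/- ProteinFx replicate 1 (-1.05) or 2 (-1.10), and with RNY1-/- ProteinFx replicates 3 and 4 only (-1.28). Mmp12 was at -0.76 ± 0.21 and -0.62 ± 0.22, passing the adjusted p but not the fold limit, which it passed with trends in GC content and length removed (-1.23 and -1.04). Mmp8 and Adam8, which fell with EVFx, had log2 fold changes of -0.34 ± 0.16 and -0.15 ± 0.17 with RNY1+/+ ProteinFx and of -0.03 ± 0.18 and -0.17 ± 0.17 with RNY1-/- ProteinFx, none of which passed the test.

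**Figure D2:**
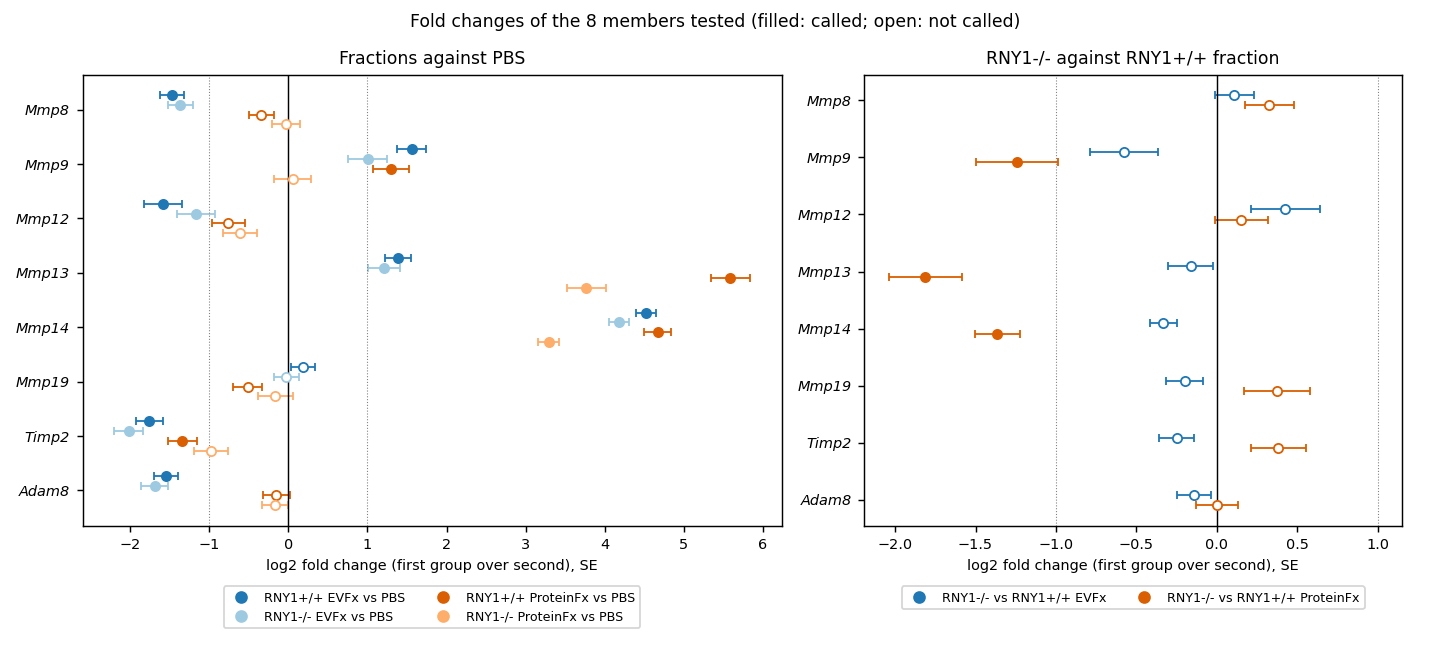
Log2 fold changes with SE (x axis) of the 8 members tested, against PBS on the left and between donor genotypes on the right; filled points passed both limits, open points did not, and dotted lines mark the fold limit of 1. In ProteinFx, Mmp13 (-1.81), Mmp14 (-1.36) and Mmp9 (-1.24) lie below -1 between genotypes, while no EVFx point does.

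Set directly against each other within a donor genotype, ProteinFx left macrophages with more Mmp13, Mmp8 and Adam8 transcript than EVFx. As the doses are in different units, this compares the treatments as given. With RNY1+/+ fluid, 3 of 8 members tested were higher with ProteinFx and none lower, where 13.5% of 10443 genes were called. With RNY1-/- fluid 4 of 8 were higher, Timp2 being the fourth, where 9.03% of 10416 genes were called. Mmp13 was 4.21 ± 0.18 higher on the log2 scale with RNY1+/+ fluid (edgeR adjusted p = 1.41e-10) and 2.56 ± 0.22 higher with RNY1-/- fluid (edgeR adjusted p = 2.76e-06). Mmp8 was 1.13 ± 0.13 and 1.35 ± 0.15 higher, and Adam8 1.40 ± 0.11 and 1.54 ± 0.13 higher. The Mmp8 call with RNY1+/+ fluid ended when counts were thinned to the smallest library (0.91) or trends with GC content and length were removed (0.93).

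Timp2 was 1.06 ± 0.17 higher with RNY1-/- ProteinFx than with RNY1-/- EVFx (edgeR adjusted p = 0.000456), a call that rested on single libraries. It was 0.99 without RNY1-/- EVFx replicate 3, 0.99 and 0.94 without RNY1-/- ProteinFx replicates 1 and 2, and 0.74 with RNY1-/- ProteinFx replicates 3 and 4 only. Mmp14 was 0.88 ± 0.11 lower with RNY1-/- ProteinFx than with RNY1-/- EVFx on the log2 scale, without overlap but under the fold limit (edgeR adjusted p = 5.77e-05), and at 0.16 ± 0.12 between the RNY1+/+ fractions (edgeR adjusted p = 0.256). Mmp9 was at -0.94 ± 0.27 between the RNY1-/- fractions and passed the fold limit without RNY1-/- EVFx replicate 1 (-1.03) or 2 (-1.09) or RNY1-/- ProteinFx replicate 3 (-1.07). Mmp12 was at 0.84 ± 0.18 between the RNY1+/+ fractions and passed it without RNY1+/+ EVFx replicate 3 (1.05). Mmp19 went the other way between the RNY1+/+ fractions, at -0.69 ± 0.14 (edgeR adjusted p = 0.000719), without overlap but under the fold limit.

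RNY1-/- was compared with RNY1+/+ fluid to ask what differs by donor genotype. In ProteinFx, RNY1-/- fluid left 3 members lower, Mmp13, Mmp14 and Mmp9, out of 8 tested and none higher, where 1.82% of 10468 genes were called. In EVFx, 0 of 8 members were called, where 2.35% of 10320 genes were. There, edgeR gave 3 members at an unadjusted p under 0.05 and DESeq2 called 0. The medians of the members were 0.08 in ProteinFx and -0.18 in EVFx, beside 0.02 and -0.001 over all genes.

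With ProteinFx, Mmp13 was 3.52-fold lower from RNY1-/- donors, a log2 fold change of -1.81 ± 0.23 (edgeR adjusted p = 0.000556), and no RNY1-/- library reached the lowest RNY1+/+ library. Mmp14 was 2.58-fold lower at -1.36 ± 0.14 (edgeR adjusted p = 0.000193), and its ranges were also apart. Mmp9 was 2.36-fold lower at -1.24 ± 0.26 (edgeR adjusted p = 0.0129), with 4.35 to 8.37 CPM against 9.0 to 18.6 CPM. With RNY1-/- ProteinFx replicates 1 and 2 only, the log2 fold changes of Mmp13, Mmp14 and Mmp9 were -2.18, -1.28 and -1.48. With replicates 3 and 4 only they were -1.51, -1.46 and -0.92, and Mmp9 no longer passed (edgeR adjusted p = 0.0795). Mmp9 also lost its call without RNY1+/+ ProteinFx replicate 4 (-1.19, edgeR adjusted p = 0.0585). The other 5 members tested did not pass, with log2 fold changes of 0.00 ± 0.13 for Adam8, 0.15 ± 0.17 for Mmp12, 0.33 ± 0.15 for Mmp8, 0.38 ± 0.21 for Mmp19 and 0.38 ± 0.17 for Timp2.

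With EVFx, Mmp14 was lower from RNY1-/- donors by a log2 fold change of -0.33 ± 0.08 (edgeR adjusted p = 0.00593), without overlap but well under the fold limit. Mmp9 was at -0.58 ± 0.21 (edgeR adjusted p = 0.0357), also under it. These were 2 of 8 members that passed the adjusted p alone, as 5377 of all 10320 genes tested did in this comparison. The log2 fold change of Mmp13 was -0.16 ± 0.14 (edgeR adjusted p = 0.344).

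An interaction term, fitted to the 16 fluid-treated libraries, asked whether the genotype effect was unequal in EVFx and ProteinFx. Of 8 members, 2 were called, both with a more negative effect in ProteinFx, where 7.79% of 10444 genes were called. The effect was lower in ProteinFx by -1.65 ± 0.30 on the log2 scale for Mmp13 (edgeR adjusted p = 0.00266) and by -1.03 ± 0.17 for Mmp14 (edgeR adjusted p = 0.00163). With RNY1-/- ProteinFx replicates 1 and 2 only the differences were -2.01 and -0.94, and with replicates 3 and 4 only -1.33 and -1.12. The Mmp14 call therefore lay near the fold limit, and it was also lost without RNY1+/+ EVFx replicate 3 (-0.98), RNY1-/- EVFx replicate 2 (-0.998), RNY1+/+ ProteinFx replicate 4 (-0.89) or RNY1-/- ProteinFx replicate 4 (-0.98). For Mmp9 the difference was -0.68 ± 0.36 and did not pass (edgeR adjusted p = 0.142). It passed both limits with trends in GC content and length removed, at -1.14 (edgeR adjusted p = 0.0401), and at -1.02 (edgeR adjusted p = 0.00565) with the replicate block added, so this call depends on that correction. Timp2 moved the other way, 0.63 ± 0.22 (edgeR adjusted p = 0.0354), under the fold limit.

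**Figure D3:**
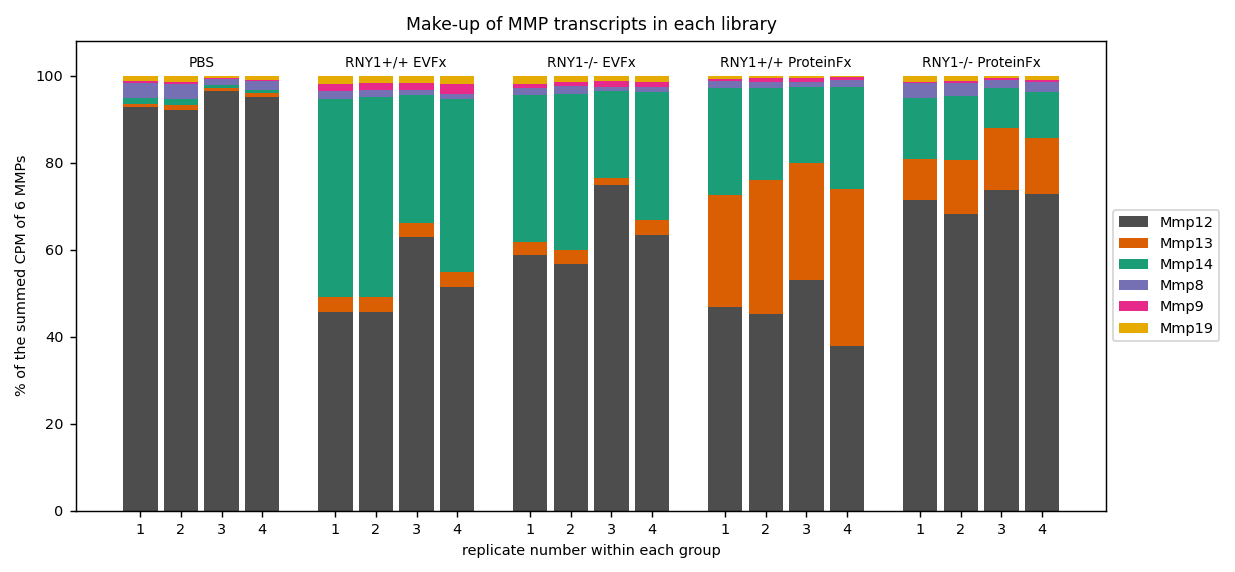
Share (%) of the summed CPM of the 6 MMPs that each MMP held (stacked bars, y axis from 0 to 100%), for each library by group and replicate on the x axis. Mmp12 holds 92.2% to 96.5% in PBS and 37.9% to 53.0% with RNY1+/+ ProteinFx, where Mmp13 and Mmp14 hold most of the rest.

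The MMP transcripts thus differed in make-up as well as amount, which is given here as a description with no test. The 6 MMPs summed to 1637 ± 458 CPM in PBS (SD, n = 4), 874 ± 116 and 905 ± 164 CPM with RNY1+/+ and RNY1-/- EVFx, and 1786 ± 298 and 1335 ± 196 CPM with RNY1+/+ and RNY1-/- ProteinFx. Mmp12 held 94.2% ± 1.99 of that sum in PBS, 51.4% ± 8.12 and 63.4% ± 8.11 with EVFx and 45.7% ± 6.19 and 71.6% ± 2.42 with ProteinFx, from RNY1+/+ and RNY1-/- donors. Of the 6 MMPs summed, PBS thus held nearly all Mmp12. In each fraction Mmp12 held a larger mean share with RNY1-/- than with RNY1+/+ fluid. Mmp27, not a member, is left out of this sum, though it had 6496 counts over the 20 libraries beside 2637 for Mmp8. Its levels are given below, and with it the share of Mmp12 would be smaller. Mmp14 went from 1.11% ± 0.371 in PBS to 40.2% ± 7.69 and 29.7% ± 7.05 with EVFx and 21.6% ± 3.14 and 12.1% ± 2.60 with ProteinFx. Mmp13 held 0.791% ± 0.183 in PBS, 3.35% ± 0.140 and 2.80% ± 0.803 with EVFx, and 29.9% ± 4.71 and 12.1% ± 2.00 with ProteinFx.

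The 3 TIMPs summed to 780 ± 181 CPM in PBS, 206 ± 21.8 and 165 ± 25.5 CPM with RNY1+/+ and RNY1-/- EVFx, and 278 ± 47.8 and 383 ± 105 CPM with RNY1+/+ and RNY1-/- ProteinFx. The ratio of the summed member MMPs, again without Mmp27, to the TIMPs was 2.33 ± 1.32 in PBS, 4.33 ± 1.08 and 5.66 ± 1.77 with EVFx, and 6.69 ± 2.22 and 3.81 ± 1.63 with ProteinFx. Within PBS it was 1.45, 1.35, 4.19 and 2.32 for replicates 1 to 4, and only through replicate 3 did the EVFx groups, at 3.40 to 5.89 and 4.11 to 7.91, overlap PBS. RNY1+/+ ProteinFx, at 4.91 to 9.84, lay above all PBS libraries and overlapped RNY1-/- ProteinFx, at 2.30 to 6.00.

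Among the other 17 MMP genes, Mmp27 and Mmp25 reached a mean of 3 CPM in a group, 15 stayed below it in every group, 3 of these with no count. Mmp27, next to Mmp8 in the chromosome 9 cluster of 10 MMP genes that also holds Mmp13 and Mmp12, averaged 124 ± 11.1 CPM in PBS, 13.8 ± 1.61 and 21.3 ± 2.96 CPM with RNY1+/+ and RNY1-/- EVFx, and 56.1 ± 14.8 and 103 ± 6.96 CPM with RNY1+/+ and RNY1-/- ProteinFx. It dropped by 2.99 ± 0.13 and 2.28 ± 0.13 on the log2 scale with EVFx against PBS. It was 2.03 ± 0.17 and 2.1 ± 0.13 higher with ProteinFx than with EVFx. Its neighbour Mmp8 moved in the same direction in these comparisons. Unlike Mmp8, Mmp27 passed the adjusted p, under the fold limit, in 3 others. It was higher with RNY1-/- than RNY1+/+ fluid in EVFx (0.72 ± 0.13, edgeR adjusted p = 0.00082), where 5377 of 10320 genes passed the adjusted p alone. In ProteinFx it was also higher (0.79 ± 0.16, edgeR adjusted p = 0.0132), where 583 of 10468 genes did. With RNY1+/+ ProteinFx it was below PBS (-0.98 ± 0.17, edgeR adjusted p = 0.000588), where 5982 of 10832 genes did. Across the 20 libraries the log2 CPM of the pair had a Pearson r of 0.917 and a Spearman rho of 0.844, the rank 49 for Mmp8 among 7552 genes, given as a description since the libraries share treatments. The cluster did not move as 1 unit, as Mmp13 rose with EVFx while Mmp12, Mmp8 and Mmp27 fell. Mmp25, a membrane-anchored MMP of leukocytes, averaged 3.94 ± 1.62 CPM with RNY1+/+ ProteinFx and 0.0386 ± 0.0772 CPM in PBS, too low to be tested.

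By the same measure of likeness, and again as a description over the 20 libraries, the genes most like Mmp13 were Slc7a2 (r = 0.977), a transporter of cationic amino acids, Msr1 (0.968), a scavenger receptor, and Gm56663 (0.964). Those most like Mmp14 were Cp (0.993), which encodes ceruloplasmin, Gm34643 (0.988) and Tarm1 (0.988), an activating receptor of myeloid cells. Those most like Timp2 were Lgals3 (0.982), a galectin, Itgb5 (0.979), an integrin chain, and Tnfsf13 (0.978), a TNF family ligand.

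The proteins that activate, bind or clear MMPs were listed as 16 genes, of which 12 were tested in the comparisons with PBS. With RNY1+/+ EVFx 1 was higher and 3 lower, with RNY1-/- EVFx 0 and 4, with RNY1+/+ ProteinFx 1 and 3, and with RNY1-/- ProteinFx 1 and 4. Of all genes tested, 16.4%, 22.5%, 21.4% and 14.3% were called in the same 4 comparisons. The integrin chain Itgb3 and the clearance receptor Lrp1 were lower in all 4, by 1.76 to 2.45 and 1.41 to 1.99 on the log2 scale. Sdc4, a surface proteoglycan, fell by 1.1 and 1.91 with EVFx, was not called with ProteinFx, and was 1.66 and 2.07 higher with ProteinFx than with EVFx. The other calls, named after their values were seen, were Lcn2, which binds Mmp9, at 1.31 with RNY1+/+ EVFx, Itgam at 1.49 and 1.11 with ProteinFx, Plaur at -1.01 with RNY1-/- ProteinFx, and Bsg, an inducer of MMPs, at -1.63, -1.35 and -1.03 with RNY1-/- EVFx and both ProteinFx. Bsg was also 1.18 lower on the log2 scale with RNY1-/- than RNY1+/+ EVFx, and no partner was called between genotypes in ProteinFx, where 1.82% of all genes were.

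Of 10 other inhibitors, 4 were tested with RNY1+/+ EVFx and only Slpi and Thbs1 were called in any comparison. Slpi, a serine protease inhibitor of mucosal fluids, averaged 3.75 ± 1.39 CPM in PBS, 31.8 ± 10.3 and 15.4 ± 4.34 CPM with RNY1+/+ and RNY1-/- EVFx, and 2.85 ± 1.20 and 2.20 ± 0.883 CPM with ProteinFx. It rose by 3.28 ± 0.29 and 2.28 ± 0.29 on the log2 scale with EVFx against PBS and was 1.01 ± 0.24 lower with RNY1-/- than with RNY1+/+ EVFx (edgeR adjusted p = 0.00376). Thbs1, a matrix glycoprotein that binds MMPs, rose by 2.44 ± 0.24 and 1.79 ± 0.24 with ProteinFx, and its genotype effect was 1.28 ± 0.28 lower in ProteinFx than in EVFx (edgeR adjusted p = 0.00507). That effect was -0.65 in ProteinFx, which did not pass (edgeR adjusted p = 0.121), and 0.63 in EVFx (edgeR adjusted p = 0.000818), under the fold limit.

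Tgfbi, a secreted matrix protein, was the matrix gene with the largest change: it averaged 19 ± 1.25 CPM in PBS, 71.2 ± 12.2 and 62.4 ± 4.46 CPM with EVFx, and 315 ± 105 and 154 ± 22.4 CPM with ProteinFx, from RNY1+/+ and RNY1-/- donors. It was 1.13 ± 0.21 lower with RNY1-/- than RNY1+/+ ProteinFx (edgeR adjusted p = 0.00788), the only 1 of 12 matrix genes tested to be called there, where 1.82% of all genes were. Of 20 matrix genes listed 11 were tested against PBS, with 1 higher and 1 lower for RNY1+/+ EVFx, 1 and 2 for RNY1-/- EVFx, 3 and 2 for RNY1+/+ ProteinFx and 2 and 1 for RNY1-/- ProteinFx. Of all genes tested, 16.4%, 22.5%, 21.4% and 14.3% were called, in the same order. Col3a1, a fibrillar collagen chain, fell by 1.91 with RNY1-/- EVFx and by 1.21 and 1.22 with ProteinFx. With RNY1+/+ EVFx it was at -0.92 (edgeR adjusted p = 0.0134), under the fold limit.

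Among 13 other matrix-degrading proteases 8 were tested, with 0 higher and 2 lower for RNY1+/+ EVFx, 0 and 1 for RNY1-/- EVFx, 1 and 1 for RNY1+/+ ProteinFx and 2 and 1 for RNY1-/- ProteinFx. Of all genes tested, 16.4%, 22.5%, 21.4% and 14.3% were called, in the same order. Among cathepsins, lysosomal proteases that can also degrade matrix, Ctsd was lower than PBS with each of the 4 fluids, at log2 fold changes of -2.11 to -1.26. Ctsl fell by 1.09 with RNY1+/+ EVFx, was at -0.68 and under the fold limit with RNY1-/- EVFx, and rose by 1.22 and 1.08 with ProteinFx. Ctss was at 1.07 with RNY1-/- ProteinFx, and at 0.92 and under the fold limit with RNY1+/+ ProteinFx. Among 23 other ADAM and ADAMTS proteases 7 were tested, with 0 higher and 1 lower for RNY1+/+ EVFx, 1 and 1 for RNY1-/- EVFx, 2 and 2 for RNY1+/+ ProteinFx and 1 and 2 for RNY1-/- ProteinFx, beside the same shares of all genes. Adam19 fell by 2.04 and 2.00 with EVFx and by 1.28 with RNY1-/- ProteinFx. With RNY1+/+ ProteinFx it was at -0.98 (edgeR adjusted p = 0.0413), just under the fold limit. Adam9 rose by 1.28 and 1.42 with ProteinFx, and Adamts1 fell by 1.18 and 1.17 with ProteinFx.

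Markers of cells that the fluid or culture could carry were read beside these values, because Mmp8 and Mmp9 are also neutrophil genes. Of 12 neutrophil markers 9 were above the floor in a library. Their summed level was 320 to 348 CPM in PBS, 166 to 222 and 201 to 278 CPM with RNY1+/+ and RNY1-/- EVFx, and 225 to 356 and 260 to 388 CPM with RNY1+/+ and RNY1-/- ProteinFx. Most of it was S100a8 and S100a9, which macrophages also express, while the defining genes Ly6g, Mpo and Elane averaged at most 0.249 CPM in any group. The granule genes Ngp and Camp were higher, at 9.85 ± 3.97 and 4.36 ± 1.88 CPM in PBS, and were lower with RNY1+/+ and RNY1-/- EVFx by log2 fold changes of -1.5 and -1.92 for Ngp and of -1.07 and -1.13 for Camp. Ngp was also lower with RNY1+/+ and RNY1-/- ProteinFx, at -2.01 and -1.35, where Mmp8 was not called. The sum, Ngp and Camp were lower with EVFx than with PBS, as Mmp8 was, while Mmp9 was higher. The other markers tested there were not called. With RNY1+/+ and RNY1-/- EVFx, S100a9 was at -0.95 and -0.44, S100a8 at -0.45 and 0.12 and Csf3r at 0.06 and -0.74 on the log2 scale. The part of these markers in the results for Mmp8 and Mmp9 was not tested. Epx and Il5ra of eosinophils and Sftpc, Sftpb, Sftpa1 and Scgb3a2 of lung epithelium had no count in any library. The 8 eosinophil markers, 2 of them over the floor, summed to 7.65 to 13.6 CPM in PBS, 0.80 to 2.46 CPM with EVFx and 12.7 to 21.4 CPM with ProteinFx, mostly Ccr3. The 10 lung epithelial markers, 4 of them over the floor, summed to at most 33.1 CPM. Among them, Krt8 and Krt18 had genotype effects that were 1.76 and 1.5 lower in ProteinFx than in EVFx on the log2 scale. They were higher with RNY1-/- than RNY1+/+ EVFx, by 1.13 and 0.94 (edgeR adjusted p = 0.00948 and 0.0358). In ProteinFx they were at -0.61 and -0.54 and did not pass (edgeR adjusted p = 0.447 and 0.463). Mmp13 was at -0.16 in EVFx and -1.81 in ProteinFx. The 10 lymphocyte markers, 3 of them over the floor, summed to 424 to 660 CPM in PBS, 152 to 225 CPM with EVFx and 265 to 462 CPM with ProteinFx, mostly Il7r. Fibroblast markers, 7 of 8 over the floor, summed to at most 52.1 CPM and dendritic cell markers, 2 of 8, to at most 3.09 CPM. The part of any of these in the members' changes was not tested.

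**Figure D4:**
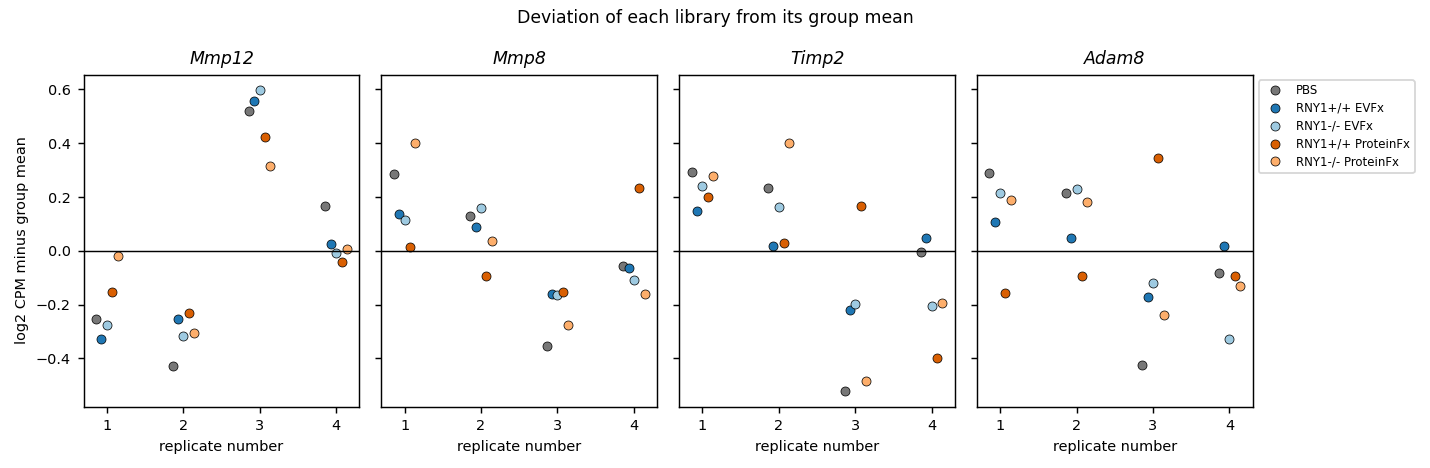
Log2 CPM of 4 members in each library minus the mean of its group (y axis), by replicate number (x axis) and group (color). In replicate 3, Mmp12 is 0.32 to 0.60 above and Mmp8 0.15 to 0.36 below the group mean in all 5 groups.

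For Mmp12 and Mmp8, replicate 3 was the extreme library in every group. Replicate 3 had the highest Mmp12 in 5 of 5 groups, at 0.32 to 0.60 above the group mean on the log2 scale, and the lowest Mmp8 in 5 of 5, at 0.15 to 0.36 below it. Timp1, Timp2, Mmp9, Mmp13 and Mmp14 also lay on one side of the group mean in all 5 groups for at least 1 replicate number, without being the extreme library in each. Among these, on the log2 scale, Timp2 was at 0.15 to 0.29 in replicate 1, Mmp9 at -0.44 to -0.04 in replicate 2 and 0.03 to 0.32 in replicate 4, Mmp13 at -0.46 to -0.03 in replicate 1 and 0.05 to 0.50 in replicate 4, and Mmp14 at -0.19 to -0.02 in replicate 3. The lowest Timp2 was in replicate 3 in 3 groups and in replicate 4 in 2. Replicate 3 also had the lowest total count in 4 of 5 groups, and the part of depth or of a shared preparation in these differences was not tested. Mmp13 was lowest in replicate 1 in 4 of 5 groups, whereas no replicate number gave the highest or lowest Mmp14 in more than 2.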

How the data were processed

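Messenger RNA from 20 libraries (5 groups of 4) was measured by 3′ end sequencing with unique molecular identifiers. The authors deposited expected counts, because reads mapping to several places were shared as fractions after removal of duplicate molecules, and CPM computed from them. Submitters' processing notes name FastQC 0.12.1, fastp 0.24.0, STAR 2.7.11, SAMtools 1.22.1, MultiQC 1.32, featureCounts of Subread 2.1.1, edgeR 4.0.16 and build GRCm39, and counting used strand. Levels are the deposited CPM, which equal count over library total. Here counts were rounded, 92 spike-in rows (0.0014% of counts) were left out, and genes that passed filterByExpr with a mean of at least 3 CPM were fitted with edgeR 4.0.16 (R 4.3.3, TMM, quasi-likelihood) on the groups compared, and with Benjamini-Hochberg adjustment. DESeq2 1.42.0 was an alternative, and Python 3.11.15 was used for the rest. Scripts were tested on simulated data.

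The members and lists were chosen with earlier results of these data known. Named genes were all members, every other MMP with a mean of at least 3 CPM in a group, in each other list the 3 genes with the largest absolute log2 fold change among those called against PBS, and, for the 3 members with the widest range of group means, the 3 genes of at least 10 CPM with the highest Pearson correlation. Depth was 2509945 to 8277283 counts, and a floor of 3 counts covers counting error only. Same-numbered replicates deviated together, with every correlation over 0.1, in 2 of 10 pairs of groups (PBS with RNY1-/- EVFx, and RNY1-/- EVFx with RNY1-/- ProteinFx); the numbers are from the labels. The alternatives were other scalings, filters and tools, thinning, GC and length trends, a replicate block, single libraries left out and the RNY1-/- ProteinFx pairs taken alone.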

Additional observations from a re-analysis of the deposited data

Results flagged for a closer look

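Timp3 was 2.54 CPM in RNY1+/+ EVFx replicate 4, against 1.00 to 1.16 CPM in the other 3 libraries, and stood out because its gap to them was nearly the whole range of the group. Adam8 was 584 CPM in RNY1+/+ ProteinFx replicate 3, against 412 to 430 CPM in the other 3, for the same reason. Chance alone gives such a library in about 1 in 20 groups, and 2 of 50 groups of a member had one.

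The genotype effect differed between fractions by an interaction term for Mmp13 (-1.65 on the log2 scale, edgeR adjusted p = 0.00266), Mmp14 (-1.03, edgeR adjusted p = 0.00163) and Timp2 (0.63, edgeR adjusted p = 0.0354), with Timp2 under the fold limit.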

How the results depend on the processing

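The 32 called fold changes of members were recomputed to give 614 alternative values: 584 kept direction and call, 30 kept direction but lost the call, and 0 changed direction. Without the fold limit, the called members, of 8 tested, went from 2 to 4 for RNY1-/- ProteinFx against PBS, from 0 to 2 for RNY1-/- against RNY1+/+ EVFx and from 3 to 6 for RNY1+/+ ProteinFx against RNY1+/+ EVFx. Of all genes tested, 3878 of 10854, 5377 of 10320 and 6606 of 10443 were then called, in the same order. For the interaction the called members went from 2 to 1 with total counts (Mmp14 at -0.87), with no filter on low counts (-0.95) and with RNY1-/- ProteinFx replicates 1 and 2 only (-0.94), and ranged from 1 to 2 when single libraries were left out. They went from 2 to 3, with Mmp9 added, when trends in GC content and length were removed, with or without the replicate block. Without the fold limit they also went from 2 to 3, with Timp2 added, where 3449 of 10444 genes were called. Mmp9 with RNY1-/- EVFx against PBS also lost its call with total counts (0.76), no filter (0.99), all 20 libraries in 1 fit (0.99) and thinned counts (0.85). Mmp9 between genotypes in ProteinFx lost it with thinned counts (-1.13, edgeR adjusted p = 0.0506). The causes were not tested.

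With the replicate block, 31 of the 32 fold changes were still called, the exception being Mmp9 with RNY1-/- EVFx against PBS (0.96). Same-numbered libraries correlated at -0.518 to 0.729 (median 0.131), and 16 of 40 matched their own number best. Depth limits Timp1 and Timp3, which had as few as 4 counts in a library, and 4 libraries a group limit the calls near the fold limit.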
